A study of Mus musculus with 16 samples.

Results

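The genes described here encode the colony-stimulating factors and 2 related ligands that govern blood cell growth: CSF1 (M-CSF), CSF2 (GM-CSF), CSF3 (G-CSF), KITL (stem cell factor) and IL34. They were chosen by gene symbol and not by their values. All 5 of 5 were found among the 18132 genes of the array table, 4 by symbol and IL34 under its older name 2010004A03RIK, which the RefSeq gene table pairs with Il34. Gene expression had been measured with 1 Illumina Mouse 8 array per culture in primary mammary fibroblasts, 4 cultures in each of 4 groups: MEKK1+/+ cells left in growth medium, MEKK1+/+ cells with conditioned medium, MEKK1-/- cells left in growth medium and MEKK1-/- cells with conditioned medium. The conditioned medium (CM) was growth medium harvested from cultures of MDA-MB231, a human breast tumor line, and the exposure lasted 8 h. All cells came from inguinal mammary glands of female 129S6 mice aged 8 to 10 weeks and were grown in DMEM with 10% serum. MEKK1 is the kinase encoded by MAP3K1, and the sources used here do not say which part of the gene the MEKK1-/- allele lacks. The fibroblasts came from 3 mice per genotype, and which mouse stands behind which culture is not given, so each error below is between cultures and the p values may measure technical spread only.

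Colony-stimulating factors are secreted or membrane-bound proteins that act on receptors of blood cells and their precursors. CSF1 and IL34 share the receptor CSF1R and keep macrophages alive, CSF2 acts on granulocytes, macrophages and dendritic cells through CSF2RA and the shared beta chain CSF2RB, and CSF3 drives neutrophil production through CSF3R. KITL supports stem cells and mast cells. Fibroblasts are a known source of CSF1 at rest, while CSF2 and CSF3 are classic products of stromal cells stimulated by inflammatory signals, with NF-kB among the transcription factors that act on them.

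To show the DNA in front of members that behaved differently on the arrays, the 250 bases before the gene start were taken from the RefSeq promoter table (build GRCm38.p6), which held windows for 3 of the 5 genes (Csf1, Csf2 and Kitl). Capitals mark every match on either strand to 1 of 3 motifs: GGG and CC with any 5 bases between them (NF-kB type), the AP-1 motif TGANTCA, and the TATA box motif TATAAA. The first motif occurs in 45.8% of the 32851 promoter windows of that table, the second in 6.75% and the third in 12.4%. Each sequence runs 5′ to 3′ on the strand of its gene.
Csf2, chr11:54249900-54250149, minus strand: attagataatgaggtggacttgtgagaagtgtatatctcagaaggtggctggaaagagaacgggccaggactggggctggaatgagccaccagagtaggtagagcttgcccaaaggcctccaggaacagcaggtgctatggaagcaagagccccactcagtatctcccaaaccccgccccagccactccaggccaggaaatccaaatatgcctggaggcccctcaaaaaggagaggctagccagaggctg
Csf1, chr3:107760470-107760719, minus strand: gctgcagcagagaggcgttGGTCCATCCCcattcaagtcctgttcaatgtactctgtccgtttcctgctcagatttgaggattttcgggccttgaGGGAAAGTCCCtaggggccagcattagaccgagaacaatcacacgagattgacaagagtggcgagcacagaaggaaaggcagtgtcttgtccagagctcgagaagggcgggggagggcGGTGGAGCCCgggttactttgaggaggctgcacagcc
Kitl, chr10:100015571-100015820, plus strand: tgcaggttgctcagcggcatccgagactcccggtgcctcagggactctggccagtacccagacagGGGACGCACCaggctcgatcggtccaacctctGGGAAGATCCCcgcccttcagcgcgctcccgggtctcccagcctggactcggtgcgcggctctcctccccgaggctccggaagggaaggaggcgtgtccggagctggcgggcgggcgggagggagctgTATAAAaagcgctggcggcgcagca
The Csf2 window held 0 matches to any of the 3 motifs. The Csf1 window held 4 matches to the NF-kB type motif, of which 2 overlap in GGGAAAGTCCC, and the Kitl window held 3 such matches, 2 of them overlapping, and 1 TATA box. A match is a string of letters and not a measured binding site, and the table's window lies before the outermost annotated start, which need not be the start used in these cells. The 0 matches in the Csf2 window therefore do not show that the promoter used in these cells lacks these motifs.

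The authors deposited 1 intensity per gene and array, and array medians ran from 114 to 170.1. Values below are log2 intensities after quantile normalization, which gives every array the same distribution. A gene was called above background on an array when it exceeded the 99th percentile of 1075 olfactory receptor genes there, a level between 7.20 and 7.34 (log2). The fibroblast markers were present: of 10 genes, 9 or 10 were above background on each array. Macrophage markers were present too, with 8 to 13 of 15 above background. MAP3K1 itself was not lower on arrays labelled MEKK1-/-: before treatment it ranged from 7.51 to 7.95 in MEKK1+/+ cells and from 8.06 to 8.41 in MEKK1-/- cells, and from 7.42 to 8.18 and from 7.79 to 8.29 with CM. Every direction between genotypes therefore rests on the labels. Limma's p values were adjusted by the Benjamini-Hochberg method across the 18132 genes, and with 4 arrays a side a 2-sided exact permutation test cannot give a p under 0.0286.

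CSF2 was the member that rose with CM, and it rose in both genotypes. In untreated MEKK1+/+ cells (replicates 1 to 4) the normalized log2 intensity of CSF2 was 7.16, 6.79, 7.07 and 9.44, and CM-treated cells gave 10.15, 9.55, 9.62 and 11.05. On the untreated MEKK1-/- arrays it was 7.06, 7.01, 6.70 and 6.72, and with CM 8.87, 9.83, 10.16 and 10.06. All 8 arrays with CM were above background, against 1 of 8 untreated arrays, and in each genotype the treated and untreated arrays did not overlap. As deposited, before normalization, the CSF2 intensity ran from 119 to 565 in untreated MEKK1+/+ cells and from 639 to 1729.9 with CM, and from 117 to 139.6 and from 488 to 1374 in MEKK1-/- cells.

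**Figure D1:**
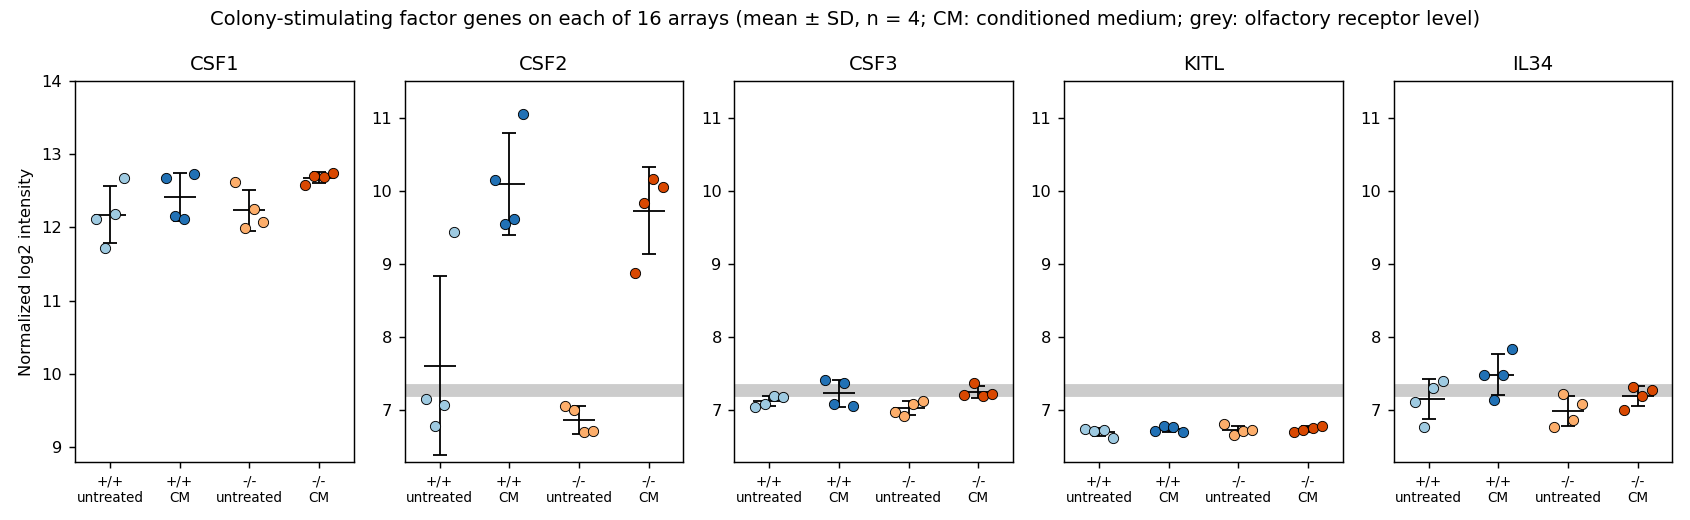
Normalized log2 intensity of the 5 genes on each of the 16 arrays. Each point is 1 array, horizontal bars with whiskers give the group mean and SD (n = 4), and the grey band spans the olfactory receptor level of the 16 arrays (7.20 to 7.34). The CSF1 axis covers higher values than the other 4 axes but the same number of log2 units. CSF2 moves from under the background band to between 8.87 and 11.05 with CM, with untreated MEKK1+/+ replicate 4 at 9.44, while KITL stays under the band in every group.

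The log2 rise of CSF2 was 2.48 (standard error 0.49, 95% interval 1.44 to 3.52) in MEKK1+/+ cells (limma adjusted p = 0.00839, exact permutation p = 0.0286, n = 4), where 1 of the 4 untreated arrays was above background. In MEKK1-/- cells it was 2.86 (standard error 0.49, 95% interval 1.82 to 3.90; adjusted p = 0.00342 from limma, exact permutation p = 0.0286). Because none of the 4 untreated MEKK1-/- arrays was above background, the size of this second change is known only as a bound. With the lowest signal above background taken as the untreated level on each array, CSF2 was at least 5.52-fold higher with CM. With untreated and treated MEKK1-/- arrays of the same number taken as pairs (a replicate block within genotype), CSF2 had an adjusted p of 0.000313 by limma and was again 1 of 5 members called, where 1438 genes (7.93% of all) were called in place of 851. CSF2 was 1 of 5 members called in each genotype, where 5.01% of all genes were called in MEKK1+/+ cells (2.27% as higher) and 4.69% in MEKK1-/- cells (2.18% as higher). The MEKK1+/+ call was lost when only the 8 MEKK1+/+ arrays were fitted, with a log2 rise of 2.58 there (adjusted p = 0.0581 from limma). In bulk cultures, more cells that express a gene and more RNA per cell cannot be told apart.

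One untreated culture stood apart. Untreated MEKK1+/+ replicate 4 had CSF2 at 9.44, within the range of the treated MEKK1-/- arrays and just under the lowest treated MEKK1+/+ array, while the other 3 arrays of its group were not above background. Over the 394 other genes that rose with CM in MEKK1-/- cells, the median gene of this array lay 0.21 (log2) above the untreated MEKK1-/- mean. The other 3 untreated MEKK1+/+ arrays lay 0.01 to 0.10 above it and the 4 treated MEKK1+/+ arrays 0.55 to 0.61. With CM, MEKK1+/+ replicate 4 was again the array with the highest CSF2 of its group. Without untreated replicate 4 the log2 rise of CSF2 in MEKK1+/+ cells was 3.09 (adjusted p = 0.000258 from limma). As deposited, the median intensity of untreated replicate 4 was 114.3. The median was 152.4 to 166.6 on the other untreated MEKK1+/+ arrays and 113.8 to 121.5 on the treated ones. Why this array differed was not tested. This summary of the array was added after its CSF2 value had been seen.

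CSF2 was lower on average on arrays labelled MEKK1-/-, and neither difference was past the threshold. In untreated cells none of the MEKK1-/- arrays and only MEKK1+/+ replicate 4 was above background. The log2 difference was -0.74 (95% interval -1.78 to 0.30, adjusted p = 0.647 by limma, exact permutation p = 0.143), and it uses values not above background. With the lowest signal above background as the MEKK1-/- level, the MEKK1+/+ mean was 1.27-fold higher. That value rests on replicate 4, and without replicate 4 neither group had a measured level. With CM the log2 difference was -0.36 (95% interval -1.40 to 0.68, adjusted p = 0.860 from limma, exact permutation p = 0.514), and the arrays of the 2 genotypes overlapped. The interaction term, which is the MEKK1-/- rise minus the MEKK1+/+ rise, was 0.38 (95% interval -1.09 to 1.85, adjusted p = 1.00 from limma). It turned to -0.23 without untreated MEKK1+/+ replicate 4, and it uses untreated values of which 7 of 8 were not above background. The interval is wide enough to hold a difference of either sign, so a smaller or larger CSF2 response in MEKK1-/- cells was not detectable with 4 arrays per group. Beside these differences, the summed normalized intensity of the 15 macrophage markers ran, before treatment, from 9565 to 22051 in MEKK1+/+ and from 4112 to 14621 in MEKK1-/- cells, and from 8112 to 22088 and from 3896 to 14410.1 with CM. Of these markers ITGAM and PTPRC were above background on no array. The part of macrophages in the CSF2 values was not tested.

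CSF1 was far above background on every array, treated or not. Normalized log2 intensities of CSF1 were 12.12, 11.72, 12.18 and 12.68 in untreated MEKK1+/+ cells and 12.67, 12.16, 12.12 and 12.73 with CM. In MEKK1-/- cells it was 12.63, 12.00, 12.25 and 12.07 untreated and 12.58, 12.71, 12.69 and 12.75 with CM. It was above background on 16 of 16 arrays, and treated and untreated arrays overlapped in both genotypes. The log2 change with CM was 0.25 (95% interval -0.16 to 0.65, adjusted p = 0.611 from limma, exact permutation p = 0.429) in MEKK1+/+ cells. In MEKK1-/- cells it was 0.45 (95% interval 0.04 to 0.85, adjusted p = 0.244 from limma, exact permutation p = 0.0571), where 3 of the 4 treated arrays were above all 4 untreated arrays. The SD between cultures was 0.07 in treated MEKK1-/- cells and 0.28 to 0.39 in the other 3 groups. Between genotypes CSF1 differed by 0.06 (95% interval -0.34 to 0.46) in untreated cells and by 0.26 (95% interval -0.14 to 0.66) with CM, with adjusted p of 0.939 and 0.724 from limma. The untreated difference turned to -0.21 on the values as deposited.

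**Figure D2:**
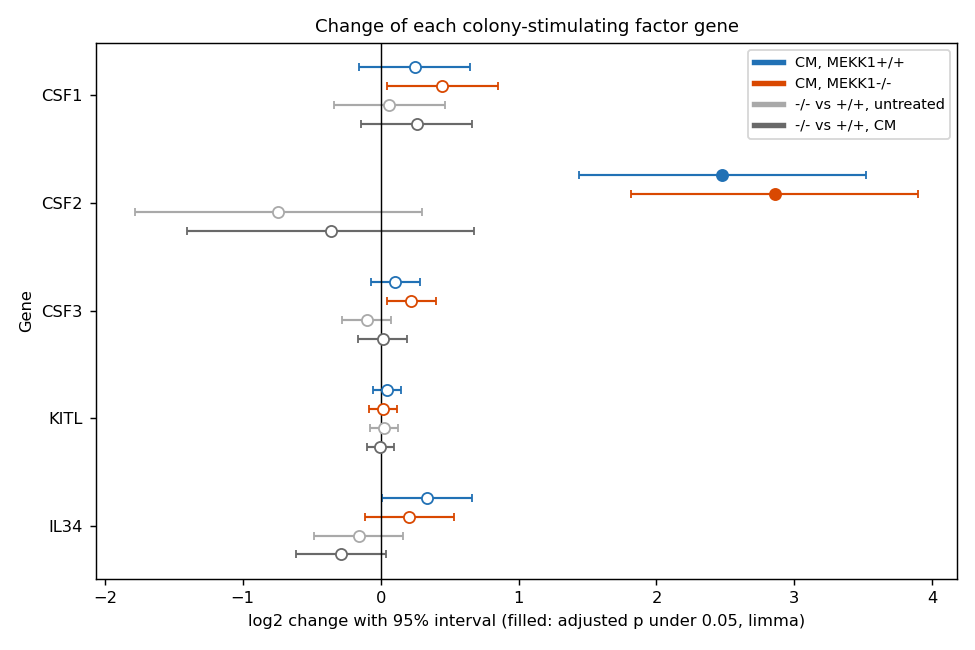
Log2 change of each gene in the 4 comparisons of groups, with 95% intervals from limma. Colours name the comparison and a filled point marks an adjusted p under 0.05. The filled points are the CSF2 responses to CM, 2.48 in MEKK1+/+ and 2.86 in MEKK1-/- cells, and the intervals of the genotype differences all include 0.

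CSF3 and KITL gave little or no signal. CSF3 was 7.05, 7.09, 7.20 and 7.18 on the untreated MEKK1+/+ arrays and 7.41, 7.08, 7.38 and 7.06 with CM, and 2 of these 8 arrays were above background. On the MEKK1-/- arrays CSF3 was 6.98, 6.92, 7.09 and 7.13 untreated and 7.21, 7.38, 7.20 and 7.22 with CM, and replicate 2 with CM was the array above background. The treated MEKK1-/- arrays all lay above the untreated ones, by 0.22 in the mean (95% interval 0.05 to 0.40), and this did not pass the threshold (adjusted p = 0.168 by limma, exact permutation p = 0.0286). In MEKK1+/+ cells the change was 0.11 (adjusted p = 0.626 from limma). So close to background, a log2 change understates any change in transcript amount. KITL was above background on 0 of 16 arrays, with values from 6.63 to 6.81, and its 4 log2 differences between groups lay between 0.00 and 0.04 in size. For KITL a level below what the array detects cannot be told from absence.

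IL34, the second ligand of CSF1R, sat at the edge of detection. Its values were 7.12, 6.78, 7.30 and 7.41 on the untreated MEKK1+/+ arrays and 7.48, 7.15, 7.49 and 7.84 with CM. On the MEKK1-/- arrays they were 6.78, 7.23, 6.87 and 7.09 untreated and 7.01, 7.32, 7.20 and 7.28 with CM. It was above background on 5 of 8 MEKK1+/+ arrays and on 1 of 8 MEKK1-/- arrays, and all groups overlapped. The log2 change with CM was 0.34 (95% interval 0.01 to 0.66, adjusted p = 0.272 from limma, exact permutation p = 0.143) in MEKK1+/+ cells and 0.21 (95% interval -0.11 to 0.53, adjusted p = 0.590 from limma) in MEKK1-/- cells. With a replicate block within genotype IL34 was called in MEKK1+/+ cells (adjusted p = 0.0100 from limma), where 1481 genes were called in place of 909. Same-numbered MEKK1+/+ arrays did not all deviate together (lowest r -0.04). Between genotypes the difference was -0.16 (95% interval -0.48 to 0.16) in untreated cells and -0.29 (95% interval -0.61 to 0.04) with CM, with adjusted p of 0.761 and 0.647 from limma.

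As counts over the 5 genes, all 5 had a higher mean with CM in both genotypes, with a median log2 change of 0.25 in MEKK1+/+ and 0.22 in MEKK1-/- cells against a median of 0.00 over all genes. KITL, which was not above background on any array, counts there with 0.04 and 0.02. On the values as deposited, CSF1 (-0.14), CSF3 (-0.16) and KITL (-0.21) were lower with CM in MEKK1+/+ cells, where the median gene was at -0.28. At an unadjusted p under 0.05 there were 2 of 5 (CSF2 and IL34) in MEKK1+/+ cells, where 16.8% of all genes were, and 3 of 5 (CSF1, CSF2 and CSF3) in MEKK1-/- cells, where 16.2% were. Treated and untreated arrays did not overlap for 1 of 5 and 2 of 5 genes, against 9.7% and 10.4% of all genes. Between genotypes limma called 0 of 5 members in untreated cells, where 0% of all genes were called, and 0 of 5 with CM, where 0.00552% were. At an unadjusted p under 0.05 there were 0 members in either, against 9.27% and 8.09% of all genes, and arrays of the 2 genotypes were apart for 0 members, against 4.61% and 4.17% of all genes. The comparison of z-scores that the methods name also called 0 members between genotypes. For the interaction limma called 0 of 5 members and 0% of all genes, with 0 members and 2.61% of all genes at an unadjusted p under 0.05.

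Counting CSF2RB2, a relative of CSF2RB, 6 genes of a receptor list for these ligands were measured, and the receptor of KITL was not analysed here. Named after their values were seen, CSF1R, CSF2RA and SDC1 (a syndecan that can bind IL34) were above background on all 16 arrays, while CSF2RB, CSF2RB2 and CSF3R were so on none. CSF2RA binds CSF2, and CSF2RB is the chain that passes the signal on. Without pairs limma called 0 of the 6 in either response to CM, with 1 and 2 at an unadjusted p under 0.05, and the median log2 change was 0.02 in MEKK1+/+ and -0.02 in MEKK1-/- cells. With the MEKK1-/- arrays paired, SDC1 was called there (log2 change 0.39, adjusted p = 0.0107 from limma), where 7.93% of all genes were called. The same block called SDC1 in MEKK1+/+ cells too (log2 change 0.37, adjusted p = 0.0135 from limma), where 1481 of 18132 genes were called. Before treatment CSF1R was at 8.75 ± 0.64 (SD, n = 4) on MEKK1+/+ arrays and at 7.93 ± 0.51 on arrays labelled MEKK1-/-, and these groups overlapped (log2 difference -0.82, adjusted p = 0.489 from limma, exact permutation p = 0.0571). It is also a macrophage marker, and its changes with CM were -0.29 and -0.02, neither past the threshold.

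Among 11 other blood cell growth factor genes, TSLP was the gene called without regard to pairs, and it rose with CM in both genotypes. TSLP is a cytokine of epithelial and stromal cells that acts on dendritic and other immune cells. TSLP stood at 7.00, 6.82, 6.93 and 7.07 (log2) in untreated MEKK1+/+ cells and 7.44, 8.16, 7.53 and 7.79 with CM. On the MEKK1-/- arrays it was 7.46, 7.02, 6.83 and 7.18 untreated and 8.41, 7.82, 7.75 and 8.07 with CM. All 8 treated arrays were above background, against 1 of 8 untreated arrays (MEKK1-/- replicate 1), and treated and untreated arrays did not overlap in either genotype. The rise was 0.78 (standard error 0.17, adjusted p = 0.0152 from limma), at least 1.41-fold, in MEKK1+/+ cells, and 0.89 (standard error 0.17, adjusted p = 0.00673 from limma) in MEKK1-/- cells, where 1 of the 4 untreated arrays was above background. Both calls were lost on the values as deposited (adjusted p = 0.0888 and 0.0768 from limma), where the median gene itself shifted by -0.28 in MEKK1+/+ cells, and the MEKK1+/+ call was lost without untreated MEKK1+/+ replicate 2 (adjusted p = 0.0514 from limma). On untreated MEKK1+/+ replicate 4, where CSF2 was at 9.44, TSLP was at 7.07 and not above background. The summed normalized intensity of 7 epithelial markers ran, before treatment, from 1108 to 1159 in MEKK1+/+ and from 1139 to 9741 in MEKK1-/- cells. With CM it ran from 995 to 1093 and from 1125 to 8204. The part of epithelial cells in the TSLP values was not tested.

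The other 10 genes of this list were not called in either genotype without pairs. With the MEKK1-/- arrays paired by number, an alternative added for this list after its values were seen, limma called 5 of 11 in MEKK1-/- cells, against 7.93% of all genes: IL6, IL11, LIF and TSLP as higher and CXCL12 as lower. IL6 had a log2 change of 2.10 there (adjusted p = 0.0219 with pairs and 0.0752 without) and LIF one of 1.11 (0.0164 and 0.0789). IL11, a relative of IL6 that acts through the same signal chain, had one of 0.98 (0.00386 and 0.625), and CXCL12, which holds blood stem cells in the bone marrow, one of -1.38 (0.00624 and 0.0570). Replicate 1 had by far the highest IL11 of each MEKK1-/- group, at 11.84 untreated and 13.11 with CM. In MEKK1+/+ cells the changes were 1.45 for IL6, 0.57 for IL11, 0.82 for LIF and -0.64 for CXCL12. Without pairs their adjusted p from limma were 0.250, 0.814, 0.215 and 0.466. With the MEKK1+/+ arrays blocked by number in the same way they were 0.0966, 0.0496, 0.0600 and 0.148. That block called 2 of 11 genes in MEKK1+/+ cells (IL11 and TSLP), and 1481 genes of all. The pairs in MEKK1-/- cells were chosen from these same data. Treated and untreated MEKK1-/- arrays did not overlap for 5 of the 11 genes (IL6, IL7, LIF, TSLP and CXCL12), against 10.4% of all genes. In MEKK1+/+ cells they did not overlap for 1 of the 11 (TSLP), against 9.7% of all genes. IL7 lay near background, above it on 0 of 4 untreated and 1 of 4 treated MEKK1-/- arrays. IL3, the next protein-coding gene beside Csf2 in the RefSeq annotation, and IL5 were above background on 0 of 16 arrays, and their 4 log2 changes with CM lay between -0.08 and 0.07. These genes were named after their values were seen.

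**Figure D3:**
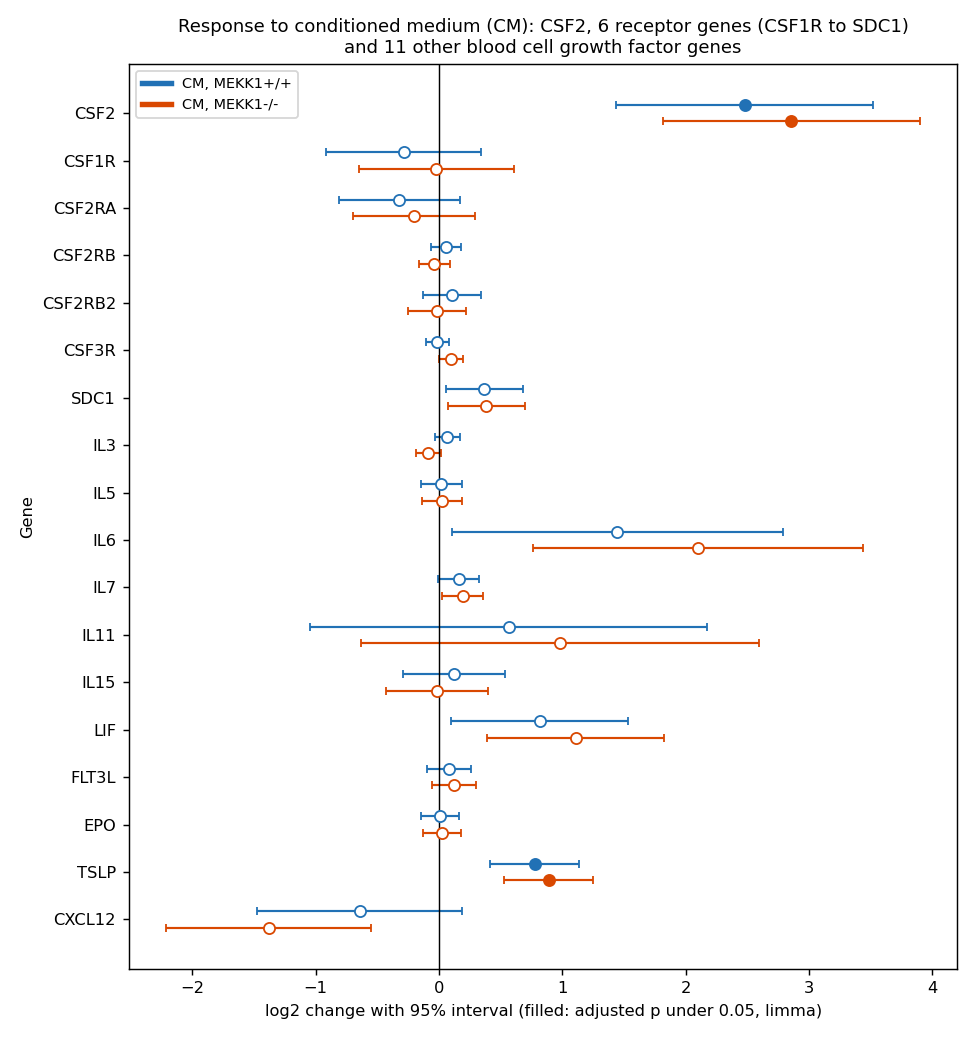
Log2 change with CM and its 95% interval for CSF2, 6 receptor genes (CSF1R to SDC1) and 11 other blood cell growth factor genes (IL3 to CXCL12) in MEKK1+/+ (blue) and MEKK1-/- (orange) cells. A filled point marks an adjusted p under 0.05 by limma without pairs, which CSF2 and TSLP reached in both genotypes, and IL6 and LIF have wide intervals above 0 with open points.

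The genes whose log2 values followed a member most closely over the 16 arrays were ranked by Pearson's r among 8796 genes above background on at least 4 arrays, for the 3 members that were themselves so. For CSF2 they were CD40 (r = 0.970), TXNIP (r = 0.954) and RHOG (r = 0.953). CD40 is a receptor of the TNF receptor family, TXNIP binds thioredoxin and RHOG is a small GTPase. With the group means removed, which leaves the spread between cultures, r was 0.864, 0.799 and 0.773. Much of that spread in CSF2 came from untreated MEKK1+/+ replicate 4, at 9.44 against a group mean of 7.61. Its values of CD40, TXNIP and RHOG were also the highest of that group, and r without this array was not computed. All 3 rose with CM in both genotypes, CD40 by 1.24 and 1.58, TXNIP by 1.38 and 1.35 and RHOG by 0.57 and 0.64 (adjusted p between 0.00107 and 0.0118 from limma). These r values describe 16 arrays in 4 groups that share cultures' treatment, and the genes were selected for them. Because CSF2 rose with CM on these arrays, that selection favours genes that rise with CM. The rises of CD40, TXNIP and RHOG and their p values are therefore not separate support.

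**Figure D4:**
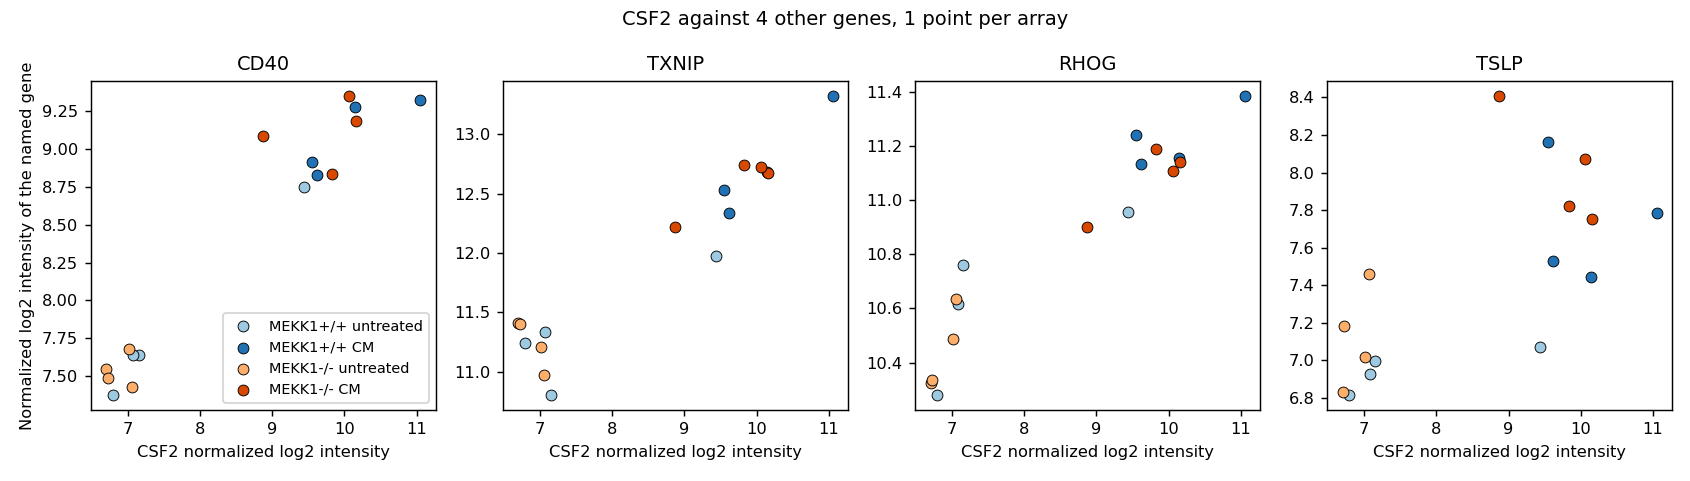
Normalized log2 intensity of CD40, TXNIP, RHOG and TSLP (y axes) against that of CSF2 (x axis), with 1 point per array coloured by group. Untreated MEKK1+/+ replicate 4, the light blue point at 9.44 on the CSF2 axis, has the highest CD40 (8.75), TXNIP (11.98) and RHOG (10.96) of the 8 untreated arrays and lies among them for TSLP (7.07). CD40, TXNIP and RHOG were picked by their r with CSF2 over arrays that include this one, and TSLP was not. Their high values on it therefore follow in part from that choice.

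For CSF1 the closest genes were PHLDB1 (r = 0.884), CRIP2 (r = 0.876) and TIMP1 (r = 0.849), and with group means removed r was 0.807, 0.828 and 0.818. TIMP1 is an inhibitor of matrix metalloproteinases. For IL34 they were MOCOS (r = 0.920), GBP2 (r = 0.907) and LOC547343 (r = 0.901), with r of 0.908, 0.864 and 0.846 after the group means were removed. GBP2 is an interferon-induced GTPase. None of these 6 genes passed the threshold for CM in either genotype. All 6 were selected for their r. IL34 itself was above background on 2 of 4 untreated and 3 of 4 treated MEKK1+/+ arrays. On MEKK1-/- arrays it was so on 0 of 4 and 1 of 4, so its r values rest in part on values not above background.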

How the data were processed

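The authors deposited 1 intensity per gene symbol and array on a linear scale for 16 Illumina Mouse 8 arrays. Per the labels a core facility normalized them, and how that was done, how background was treated and how several probes of a gene were joined are not given in the sources used here. With 4 arrays a group, their number limits precision. The log2 intensities were quantile normalized, and the 4 groups were fitted together with limma 3.58.1 in R 4.3.3 (lmFit and eBayes, 12 residual degrees of freedom, threshold 0.05), which was tested on simulated data. Exact permutation tests were 2-sided. RefSeq names were matched by symbol for 14305 genes, by older symbol for 2905 and not at all for 922.

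The members, lists, motifs and rules for named genes were chosen with earlier results of these data known. Named were the 5 members, list genes past the threshold and the 3 genes with the highest r to a member. Marker lists covered fibroblasts, macrophages, neutrophils, mast cells, lymphocytes, epithelial and endothelial cells. With group means removed, same-numbered untreated and treated MEKK1-/- arrays had r across genes of 0.505, 0.403, 0.219 and 0.251. MEKK1+/+ arrays had -0.04, 0.48, 0.12 and 0.58. Pairs were therefore taken in MEKK1-/- cells, by a rule on these same values and not by the labels. Arrays of unlike number were not compared, so the check cannot settle whether either genotype is paired. Alternatives were other normalizations and scales, a z-test, filters, variance models, blocks and each array left out.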

Additional observations from a re-analysis of the deposited data

Results flagged for a closer look

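In 28 groups of 4 arrays (5 members, TSLP and MAP3K1), 2 held an array far from the other 3 by Dixon's criterion, where chance gives about 1 in 20 groups. CSF2 on untreated MEKK1+/+ replicate 4 was 9.44, the highest of its group, and its gap to the next array was 0.861 of the group's range. CSF3 on MEKK1-/- replicate 2 with CM was 7.38, the highest of its group, with a gap of 0.869 of a range that lies at background.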

How the results depend on the processing

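The number of members called with CM, 1 in each genotype, stayed at 1 with each array left out in turn. In MEKK1+/+ cells it was 0 when only the groups compared were fitted, 2 by the z-test on z-scores (CSF2 and KITL) and 2 with a replicate block within genotype (CSF2, and IL34 at an adjusted p of 0.0100 from limma), where same-numbered arrays did not all deviate together (r = -0.04 for 1 of 4 pairs). That block also called SDC1 and IL11 in MEKK1+/+ cells. In MEKK1-/- cells it was 2 by the z-test (CSF2 and CSF3). With the replicate block within genotype, CSF2 in MEKK1-/- cells had an adjusted p of 0.000313 from limma, and the genes called numbered 1438 against 851. A replicate block across all groups changed no call of a member. Leaving out 1 array, the log2 rise of CSF2 ran from 2.16 to 3.09 in MEKK1+/+ cells (adjusted p 0.000258 to 0.0343 from limma) and from 2.71 to 3.15 in MEKK1-/- cells (adjusted p 0.000223 to 0.0164). The values as deposited called 45 genes in MEKK1-/- cells and scaling to the same median 463, and CSF2 was called in both. Other counts over all genes that a change of setting moved by over 1.5 times under limma were those for MEKK1+/+ cells (588 with only the groups compared, 1481 with the block within genotype) and for genotype with CM (7 with the same median, 0 with only the groups compared, against 1). With 1 array left out, genes called for CM ran from 506 (without untreated MEKK1+/+ replicate 3) to 1007 in MEKK1+/+ cells and from 477 (without untreated MEKK1-/- replicate 3) to 1027 in MEKK1-/- cells. The z-test called 1916 and 2047 genes for CM, 817 and 460 between genotypes and 20 for the interaction.

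Directions turned only for differences that were not called. On the values as deposited the MEKK1+/+ response to CM was -0.14 for CSF1, -0.16 for CSF3 and -0.21 for KITL, where the median of all genes was -0.28, and relative to that median they were 0.15, 0.12 and 0.08. The genotype difference was then -0.21 for CSF1 untreated and 0.31 for KITL with CM, where the median gene was at 0.28, and the interaction was 0.22 for KITL and 0.10 for IL34, with the median gene at 0.29. With the same median on every array the genotype difference of CSF1 was -0.23 untreated and -0.0048 with CM, and that of CSF3 with CM -0.018. On z-scores that of KITL with CM was 0.0034, by limma and by the z-test. With 1 array left out, ranges that crossed 0 were -0.089 to 0.23 (CSF1) and -0.0022 to 0.047 (KITL) for genotype untreated, -0.041 to 0.075 (CSF3) and -0.017 to 0.012 (KITL) for genotype with CM, -0.0051 to 0.045 (KITL) for CM in MEKK1-/- cells, and -0.23 to 0.70 (CSF2), -0.049 to 0.00045 (KITL) and -0.017 to 0.26 (TSLP) for the interaction. The cause was not tested.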

Other observations

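Markers of lymphocytes, mast cells and neutrophils were mostly not above background. Of 7 lymphocyte markers CD3E was above background on 10 arrays and the other 6 on none. Of 5 mast cell markers HDC was so on 3 arrays and the other 4 on none, and of 6 neutrophil markers CAMP was so on 13 arrays and the other 5 on none. The summed normalized intensity of the lymphocyte markers ran from 877 to 891 in untreated MEKK1+/+ cells, from 845 to 869 with CM, from 872 to 921 in untreated MEKK1-/- cells and from 859 to 956 with CM. Epithelial markers varied between cultures labelled MEKK1-/-, where the sum of 7 genes ran from 1139 to 9741 untreated and from 1125 to 8204 with CM, against 1108 to 1159 and 995 to 1093 in MEKK1+/+ cells. The sum of 6 endothelial markers ran from 775 to 913 over all MEKK1+/+ arrays and from 881 to 1418 over all MEKK1-/- arrays.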
